A study of Mus musculus with 48 samples.

Results

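Folate metabolism was followed through 8 genes of mouse colon, namely *Ggh*, *Fpgs*, *Slc46a1*, *Slc19a1*, *Shmt1*, *Mthfd1*, *Mthfd2* and *Mthfs*. They were taken by gene symbol (GENCODE vM21) from a table of read counts with 55401 genes, and all 8 were among the 15073 genes that passed the filter on low counts. *Ggh* was chosen by its measured difference between the genotypes, and the other genes were chosen because they act on the same cofactor. The genotype difference of the 8 genes is therefore given as a description, with no p-value, and a count of calls stands only beside the share of all genes.

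Dietary folates enter cells through carriers in the plasma membrane and are kept there by the addition of a chain of glutamates, which folylpolyglutamate synthase builds and gamma-glutamyl hydrolase removes. Inside the cell the cofactor carries single carbon units between oxidation states and hands them to thymidylate, purine and methionine synthesis. In the gut, where the epithelium is renewed continuously, these pathways serve DNA synthesis in crypts, and colon epithelium also takes up folate made by bacteria.

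RNA was sequenced from whole colon of adult male mice on a C57BL/6J background, killed on the second day in constant darkness at CT1, CT5, CT9, CT13, CT17 or CT21 (circadian time in hours). The study asked how a clock missing from intestinal epithelial cells changes colon transcripts. Control mice carried *Bmal1* fl/fl without Cre, and their littermates (*Bmal1*iec-/-) carried the same floxed alleles with Cre under the *Villin* promoter, which is active in intestinal epithelium, so that muscle, stroma and immune cells of the sample keep the gene. All mice were housed singly with a running wheel and ate chow ad libitum. There were 4 mice per genotype and time, 48 in all.

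The total count per mouse ran from 3144997 to 4785844. Tests used 46 mice, 24 control and 22 *Bmal1*iec-/-, leaving out SV384 and SV385 (*Bmal1*iec-/-, CT1), since the size factors in the study's control rhythm table match those computed over the other 46 mice. These 2 mice had 18285 and 18697 genes with a count, against 19577 to 20878 in the others, and summed smooth muscle markers of 698 to 2760 CPM against 2623 to 4394 in the other *Bmal1*iec-/- mice. CPM are counts per 1000000 after TMM normalization over the 48 mice. *Arntl*, the gene that encodes BMAL1, swung from 6.86 ± 2.28 CPM at CT9 to 67.5 ± 4.5 at CT1 in control mice (SD, n = 4 each). In *Bmal1*iec-/- mice it stayed between 29.6 ± 8.0 (SD, n = 4) at CT9 and 46 ± 1.77 (SD, n = 2) at CT1. *Arntl* changed its rhythm (edgeR quasi-likelihood F test of genotype by cosine and sine, Benjamini-Hochberg adjusted p = 4.07e-13). Its average genotype difference was not called (edgeR quasi-likelihood F test, adjusted p = 0.251). *Nr1d1*, a repressor that BMAL1 drives, fell by 1.49 ± 0.12 (SE) on the log2 scale in the genotype difference (edgeR quasi-likelihood F test, adjusted p = 2.15e-13). A change of rhythm was not called for *Nr1d1* (F test of genotype by cosine and sine, adjusted p = 0.983).

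The gene that removes the glutamate chain is described first, as the gene chosen by its genotype difference. *Ggh*, which encodes gamma-glutamyl hydrolase (ENSMUSG00000073987.4, GRCm38 chr4:20042052-20066750, plus strand), ranged from 39.0 to 60.6 CPM in the 24 control mice, with a median of 48.1. In all 24 *Bmal1*iec-/- mice it ranged from 94.5 to 243 CPM, with a median of 139. All 24 *Bmal1*iec-/- mice were above the highest control mouse. *Ggh* was chosen by this difference, and the share of all genes that separate the genotypes so fully was not counted. Nothing is read from the separation. The means were 48.3 ± 5.23 CPM in control mice (SD, n = 24) and 137 ± 21.3 in the 22 *Bmal1*iec-/- mice of the tests (SD, n = 22), a log2 fold change of 1.5 ± 0.05 (SE) or 2.83-fold. With SV384 and SV385 the log2 fold change was 1.57 ± 0.06 (SE). Because whole tissue was sequenced, a change in the share of the cells that express a gene and a change of its RNA per cell cannot be told apart.

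Of the 8 genes, 1 was called in the genotype difference in either direction, where 10.5% of all genes tested were called at an adjusted p under 0.05. That gene was *Ggh*, among 4.83% of genes called higher, and none of the 8 was called lower, against 5.72% of all genes. Since *Ggh* was selected on this contrast, nothing is read from the count. The median log2 fold change of the 8 genes was 0.07, and that of all genes tested rounded to 0.00.

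**Figure D1:**
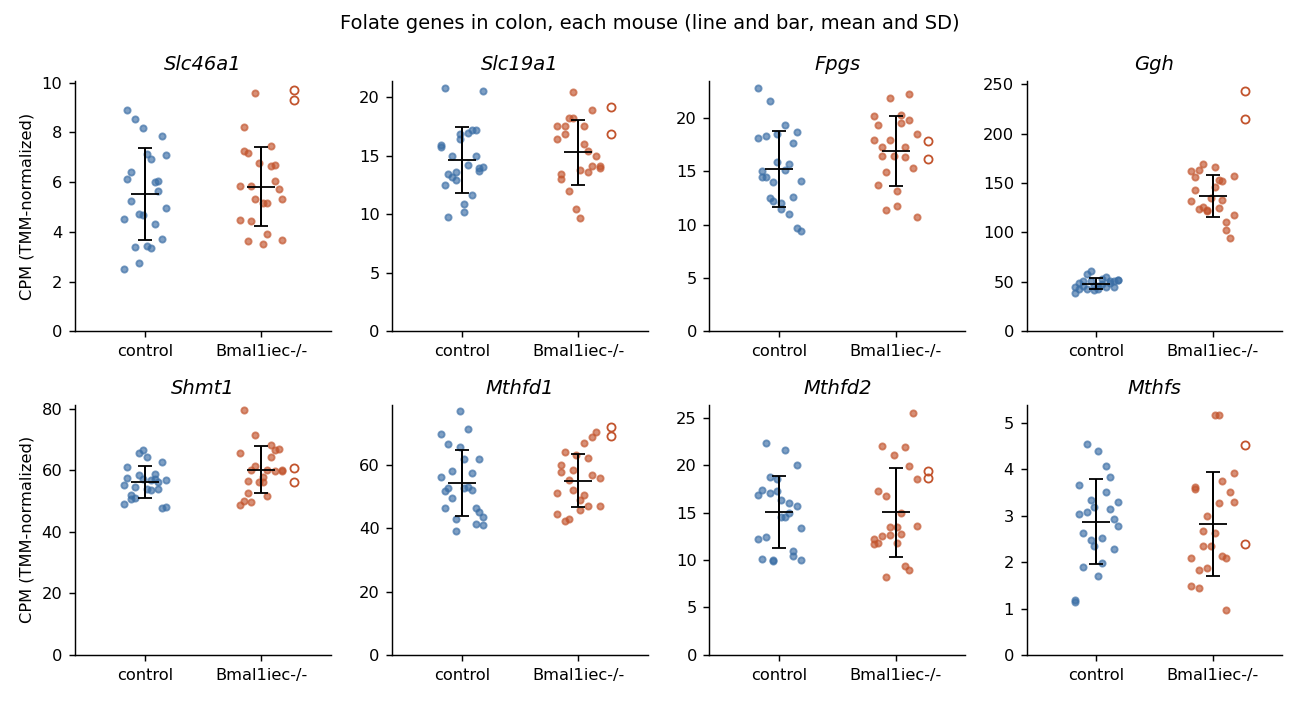
CPM of the 8 folate genes in each mouse (points), by genotype, with the mean and SD of the 46 tested mice as a black line and bar. Open circles are SV384 and SV385. *Ggh*, chosen by its genotype difference, shows 2 separate clouds, with control mice up to 60.6 CPM and *Bmal1*iec-/- mice from 94.5 CPM. The clouds of the other 7 genes overlap.

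The height of *Ggh* in *Bmal1*iec-/- mice was seen at every circadian time. At CT1 the control mice had 44.7, 49.2, 50.4 and 58.2 CPM, and the *Bmal1*iec-/- mice 152, 156, 215 and 243 CPM, where the upper pair were SV384 and SV385. At CT21 the control mice had 41.8, 44.7, 45.7 and 52.7 CPM, and the *Bmal1*iec-/- mice 94.5, 111, 122 and 135 CPM. CT1 held the highest *Bmal1*iec-/- values only through SV384 and SV385, which were left out of the tests. Among the 22 *Bmal1*iec-/- mice of the tests the highest value was 169 CPM, at CT17, and the lowest was at CT21. *Ggh* was chosen by its genotype difference, so nothing is read from the gap between the genotypes at CT1 and CT21.

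Between these times, the mean of *Bmal1*iec-/- mice was 131 ± 12.1 CPM at CT5, 129 ± 26.6 at CT9, 153 ± 14.1 at CT13 and 149 ± 18.9 at CT17 (SD, n = 4 each). Control means stayed between 44.8 ± 5.14 at CT17 and 51.6 ± 6.49 at CT5 (SD, n = 4 each). The genotypes did not overlap at any of the 6 times, which follows from their separation over all mice. The log2 fold change ran from 1.32 ± 0.12 (SE) at CT21 to 1.73 ± 0.12 (SE) at CT17.

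Whether that difference itself varied with time does not depend on the average that chose *Ggh*, so it was tested. It was not called to differ between circadian times (edgeR quasi-likelihood F test of genotype by time, adjusted p = 0.528, unadjusted p = 0.0613). *Ggh* was not called rhythmic in control mice (JTK_cycle against a 24-h cosine, Benjamini-Hochberg adjusted p = 0.367) or in *Bmal1*iec-/- mice (adjusted p = 1.0). A cosine fitted by least squares had an amplitude of 6.76 ± 2.92% of the mean in control mice and 6.87 ± 5.03% in *Bmal1*iec-/- mice (SE), and its change between genotypes was not called (edgeR quasi-likelihood F test, adjusted p = 0.572).

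**Figure D2:**
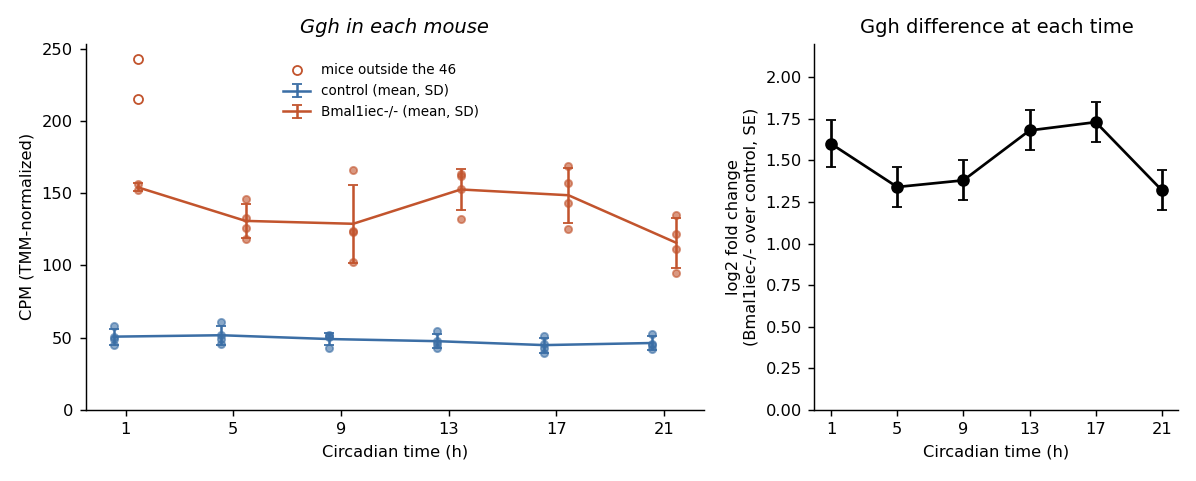
Left, *Ggh* in CPM against circadian time in each mouse, with lines through the means and bars of SD (4 mice per group, 2 for *Bmal1*iec-/- at CT1, where open circles are SV384 and SV385). Right, the log2 fold change between genotypes at each time with its SE. Control means lie between 44.8 and 51.6 CPM, and the log2 fold change between 1.32 and 1.73.

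*Fpgs*, which encodes folylpolyglutamate synthase, the enzyme that acts against *Ggh* (chr2:32682609-32704145, minus strand), ranged from 9.39 to 22.8 CPM in control mice (median 14.7) and from 10.7 to 22.3 in all *Bmal1*iec-/- mice (median 17.3). The ranges overlap almost entirely. Its log2 fold change was 0.13 ± 0.07 (SE), with values at single times from -0.09 to 0.31.

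Set per kilobase of exon, the level of *Ggh* relative to *Fpgs* ranged from 3.83 to 10.6 in control mice, with a mean of 6.54 ± 1.92 (SD, n = 24). In the 22 *Bmal1*iec-/- mice it ranged from 9.59 to 24.3, with a mean of 16.4 ± 4.58 (SD, n = 22). Hydrolase transcript thus exceeded synthase transcript in every mouse, and the ratio, which carries the selected difference of *Ggh*, overlapped between genotypes in a narrow band. These are transcripts, and neither enzyme activity nor folate chain length was measured in the counts.

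*Fpgs* was not called rhythmic by JTK_cycle, so its values at times picked after they were seen are a description. In control mice it was lowest at CT1, with 9.69, 11, 12.5 and 15.0 CPM, and at CT5, with 9.39, 12.2, 12.6 and 14.5 CPM. It was highest at CT13, with 15.7, 19.3, 21.6 and 22.8 CPM, above every value at CT1 and CT5. The rhythm lay at the edge of the threshold, with an adjusted p of 0.0518 in control mice and 0.296 in *Bmal1*iec-/- mice (JTK_cycle, Benjamini-Hochberg) and a peak at 14 h in both. An edgeR F test of the cosine in place of JTK_cycle called it in control mice (adjusted p = 0.00838), where it called 7352 of all 15073 genes. Its amplitude was 20.2 ± 5.65% of the mean in control mice and 15.9 ± 5.4% in *Bmal1*iec-/- mice (SE), and no change of rhythm was called (edgeR quasi-likelihood F test, adjusted p = 0.971).

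Of the 2 carriers, *Slc46a1* had the lower level per kilobase of exon. *Slc46a1* encodes the proton-coupled folate transporter, the main route of folate uptake in the small intestine (chr11:78465697-78472059, plus strand). It ranged from 2.49 to 8.89 CPM in control mice (median 5.45) and from 3.51 to 9.71 in all *Bmal1*iec-/- mice (median 5.84), from 10 to 38 counts per mouse. SV384 and SV385 held values of up to 9.71 CPM, and 3 of the 24 *Bmal1*iec-/- mice were above the highest control mouse.

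The log2 fold change of *Slc46a1* was 0.09 ± 0.12 (SE), and the SE is larger than the value. *Slc19a1* encodes the reduced folate carrier, which serves most tissues (chr10:77032241-77061002, plus strand). It ranged from 9.73 to 20.8 CPM in control mice (median 14.1) and from 9.65 to 20.4 in all *Bmal1*iec-/- mice (median 15.7), with a log2 fold change of 0.06 ± 0.07 (SE). Neither carrier differed between genotypes by more than the spread between mice. JTK_cycle called neither in control mice (Benjamini-Hochberg adjusted p = 0.331 for *Slc46a1* and 1.0 for *Slc19a1*) nor in *Bmal1*iec-/- mice (1.0 and 0.330).

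Of the enzymes that interconvert the bound carbon units, *Shmt1* and *Mthfd1* had the highest levels per kilobase of exon. *Shmt1* encodes the cytosolic serine hydroxymethyltransferase, which loads the carbon of serine onto tetrahydrofolate (chr11:60788104-60811718, minus strand). It ranged from 47.9 to 66.8 CPM in control mice (median 56.5) and from 48.8 to 79.8 in all *Bmal1*iec-/- mice (median 60.0), and 4 *Bmal1*iec-/- mice were above the highest control mouse. The log2 fold change was 0.10 ± 0.05 (SE), higher at 6 of 6 times, of which CT1 had the largest value (0.41 ± 0.13, SE) and CT21 the smallest (0.01 ± 0.11, SE). With 2 *Bmal1*iec-/- mice at CT1 this variation was not called (edgeR quasi-likelihood F test, adjusted p = 0.720), and neither genotype had a called rhythm (JTK_cycle, adjusted p = 1.0 in both).

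*Mthfs* encodes methenyltetrahydrofolate synthetase, which returns a storage form of folate to use (chr9:89210676-89377713, plus strand). It was the gene with the fewest reads, 4 to 21 counts per mouse, and ranged from 1.13 to 4.54 CPM in control mice (median 2.98) and from 0.970 to 5.18 in all *Bmal1*iec-/- mice (median 2.65). Its log2 fold change was -0.02 ± 0.16 (SE), and single times ran from -0.31 to 0.68. The annotation also holds *Mthfsl*, a near copy on the same chromosome. Reads that match both may be left out of the counts, which kept a mapping quality of 4 or more. No rhythm of *Mthfs* was called (JTK_cycle, adjusted p = 0.551 in control mice and 1.0 in *Bmal1*iec-/- mice).

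JTK_cycle called *Mthfd1* and *Mthfd2* rhythmic in control mice, where it called 39.7% of all genes. Both encode enzymes that carry the cofactor between formate and methylene states, and nothing is read about that class of enzymes. *Mthfd1* encodes the trifunctional cytosolic enzyme that takes up formate (chr12:76255298-76319803, plus strand), and *Mthfd2* encodes the mitochondrial dehydrogenase and cyclohydrolase, which is common in dividing cells (chr6:83305691-83325908, minus strand). Their promoters are shown because these were the genes of the 8 with a called rhythm in control mice. The sequences are from RefSeq (GRCm38.p6), run 5′ to 3′ and end at the base before the annotated start. Capitals mark AGGTCA, the core bound by REV-ERB and ROR receptors.
Mthfd1, chr12:76254982-76255231, plus strand: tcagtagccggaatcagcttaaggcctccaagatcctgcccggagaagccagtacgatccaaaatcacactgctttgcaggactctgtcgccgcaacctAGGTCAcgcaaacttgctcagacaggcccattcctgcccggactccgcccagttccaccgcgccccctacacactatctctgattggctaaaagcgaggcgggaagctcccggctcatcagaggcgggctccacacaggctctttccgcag
Mthfd2, chr6:83317605-83317854, minus strand: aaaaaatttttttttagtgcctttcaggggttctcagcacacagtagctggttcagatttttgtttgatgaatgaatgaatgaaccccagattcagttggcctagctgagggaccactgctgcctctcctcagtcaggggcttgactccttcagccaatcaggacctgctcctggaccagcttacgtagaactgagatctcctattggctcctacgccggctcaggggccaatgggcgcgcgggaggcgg

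Promoter windows of 250 bases before to 50 after the start were at hand for 7 of the 8 genes (all but *Ggh*), in 9 windows. On both strands, CACGTG (the E-box of CLOCK and BMAL1) was in 7.15% of the 32851 windows of all genes, TTATGTAA or TTACGTAA (the D-box) in 1.06%, and AGGTCA in 16.3%. No motif holds another. Of the 9 windows, 1 held any of them, that of *Mthfd1*, with AGGTCA beginning 151 bases before the start. A match is a description of the letters only.

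In control mice *Mthfd1* was lowest at CT5, with 41.1, 41.3, 43.1 and 52.9 CPM, and at CT9, with 39.1, 43.7, 46.6 and 51.7 CPM. It was highest at CT21, with 61.8, 65.8, 71.3 and 77.2 CPM. All 4 mice at CT21 were above all 8 mice at CT5 and CT9, times picked after the values were seen. The group means were 51.9 ± 6.93 CPM at CT1, 52.8 ± 2.64 at CT13 and 62.9 ± 7.40 at CT17 (SD, n = 4 each).

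*Bmal1*iec-/- mice also had low *Mthfd1* at CT5, with 43.0, 47.0, 47.2 and 49.1 CPM, and high *Mthfd1* at CT21, with 58.5, 63.2, 68.9 and 70.5 CPM. Their values at CT9 were wide, with 45.9, 52.2, 56.8 and 64.2 CPM, and those at CT13 were low, with 42.5, 44.5, 50.6 and 51.1 CPM. The mice at CT5 and CT21 did not overlap in either genotype. Both times were picked after the values were seen, so nothing is read from this.

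*Mthfd2* followed a similar course at a lower level. In control mice it had 9.91, 9.96, 10.1 and 11 CPM at CT9 and from 17.3 to 21.6 CPM at CT21 (mean 19.3 ± 1.87, SD, n = 4). In *Bmal1*iec-/- mice it had 8.26, 9.34, 13.5 and 13.6 CPM at CT5, 11.7, 12.2, 12.5 and 12.7 CPM at CT13, and 12.6, 19.9, 21.1 and 25.5 CPM at CT21. At CT21 control mice were all above those at CT9, while 1 *Bmal1*iec-/- mouse (12.6 CPM) lay among the low times. The times compared here were also picked after the values were seen.

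Of the 8 genes, 2 were called rhythmic in control mice, *Mthfd1* (JTK_cycle, Benjamini-Hochberg adjusted p = 0.000469) and *Mthfd2* (adjusted p = 0.000865), both with a peak at 20 h. Among all genes tested, 39.7% were called in control mice, a larger share than among the 8. In *Bmal1*iec-/- mice 0 of 8 were called by JTK_cycle, where 14.9% of all genes were called. The adjusted p was 0.126 for *Mthfd1* (peak at 20 h) and 0.185 for *Mthfd2* (peak at 22 h). Without adjustment over genes 1 of 8 was under 0.05, *Mthfd1*, with an exact JTK_cycle p of 0.0318, where 4310 of all 15073 genes were. An edgeR F test of the cosine also called *Mthfd1* alone (adjusted p = 0.0184), where it called 3365 of the 15073 genes.

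A rhythm called in 1 genotype is not a difference between genotypes. The fitted amplitude of *Mthfd1* was 22.3 ± 3.25% of the mean in control mice and 13.9 ± 3.53% in *Bmal1*iec-/- mice (SE), and that of *Mthfd2* 27.3 ± 4.71% and 24.4 ± 8.01% (SE). The change of rhythm was not called for either gene (edgeR quasi-likelihood F test, adjusted p = 0.515 and 0.848). For the 8 genes together it was called for 0, with 0 at an unadjusted p under 0.05 and 0 by DESeq2, where 0.935% of all genes were called by edgeR. A genotype difference that varied between circadian times was called for 0 of 8 by edgeR, with 0 at an unadjusted p under 0.05 and 0 by DESeq2, where 0.504% of all genes were called by edgeR.

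By JTK_cycle with adjustment over genes, the absence of a call in *Bmal1*iec-/- mice depended on 1 mouse. Without replicate SV400 at CT9, JTK_cycle called both *Mthfd1* (adjusted p = 0.0259) and *Mthfd2* (adjusted p = 0.0310). The number of all genes called without SV400 was not counted. SV400 had the highest *Mthfd1* (64.2 CPM) and *Mthfd2* (22 CPM) of its group. It also had the highest sum of 8 proliferation markers of its group, 798 CPM, where the mean of the group was 550 ± 166 CPM (SD, n = 4).

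**Figure D3:**
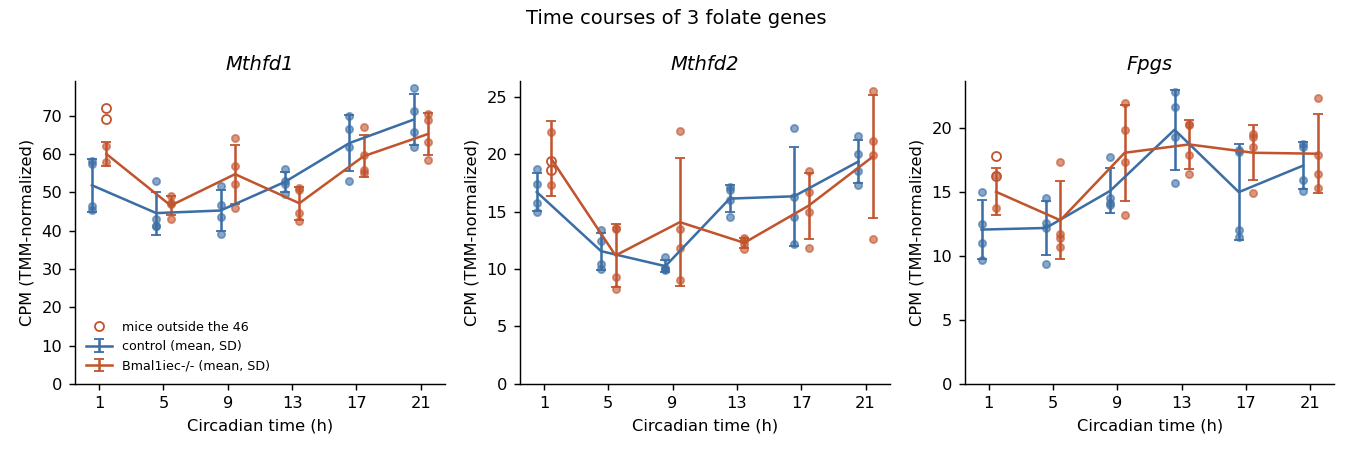
CPM of *Mthfd1*, *Mthfd2* and *Fpgs* against circadian time in each mouse, with lines through the group means and bars of SD (4 mice per group, 2 for *Bmal1*iec-/- at CT1). Open circles are SV384 and SV385. *Mthfd1* and *Mthfd2* are lowest at CT5 to CT9 and highest at CT21 in control mice (69.0 and 19.3 CPM), and *Fpgs* is highest at CT13 (19.8 CPM).

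The proliferation markers themselves moved with time. All 8 of them, led by *Mki67* and *Top2a*, were called rhythmic in control mice and 7 in *Bmal1*iec-/- mice (JTK_cycle), where 39.7% and 14.9% of all genes were called. Their sum in control mice was highest at CT1 (701 ± 176 CPM) and lowest at CT13 (281 ± 9.97 CPM; SD, n = 4 each), and in *Bmal1*iec-/- mice it was 647 ± 104 CPM at CT1 (SD, n = 2) and 347 ± 58.2 at CT17 (SD, n = 4). After the mean of each of the 12 groups was removed, the log2 level of *Mthfd2* had a Pearson r of 0.51 with that sum over 46 mice, *Mthfd1* of 0.31 and *Ggh* of -0.03. These correlations are descriptions over mice that share libraries and depth, and the part of proliferating cells in the rhythms was not tested.

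Levels were compared between genes only per kilobase of exon. In control mice *Ggh* was highest at 24.6 ± 2.66 CPM per kb, followed by *Shmt1* at 14.5 ± 1.35 and *Mthfd1* at 12.2 ± 2.36 (SD, n = 24 each). *Mthfd2* had 4.32 ± 1.08, *Fpgs* 4.0 ± 0.942, *Slc19a1* 3.15 ± 0.607, *Slc46a1* 1.79 ± 0.605 and *Mthfs* 0.376 ± 0.119 CPM per kb (SD, n = 24 each). *Shmt1* and *Mthfd1* lie within their spread of each other, as do *Mthfd2*, *Fpgs* and *Slc19a1*. The order was the same in the 22 *Bmal1*iec-/- mice up to *Mthfd2* and *Fpgs*, which changed places (4.30 ± 1.35 and 4.45 ± 0.870 CPM per kb), while *Ggh* had 69.7 ± 10.8 CPM per kb (SD, n = 22).

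The 8 genes did not move together from mouse to mouse. Over the 46 mice the highest Pearson r of log2 CPM between any pair was 0.67, between *Mthfd1* and *Mthfd2*, which share the rhythm. With the 12 group means removed, this r was 0.26, and the pair farthest from 0 was *Ggh* and *Slc19a1* (r = -0.51), followed by *Ggh* and *Mthfd1* (r = -0.45). *Fpgs* and *Mthfd1* had an r of 0.42. The pairs share libraries and depth.

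Over the 46 mice the genes most like *Ggh*, by Pearson r of log2 CPM, were *Cyp3a11* (r = 0.84), *Retnlb* (0.83), *Myo18b* (0.83), *Ddc* (0.82) and *2610528A11Rik* (0.82). *Cyp3a11* encodes a cytochrome P450 that oxidises drugs and steroids, *Retnlb* an antimicrobial resistin-like protein of goblet cells, and *Ddc* the decarboxylase that makes dopamine and serotonin. Each was higher in *Bmal1*iec-/- mice, by 2.72 ± 0.23, 4.18 ± 0.41, 1.45 ± 0.12, 0.48 ± 0.05 and 0.60 ± 0.06 on the log2 scale in the same order (SE). Once the group means were removed, other genes headed the list, namely *Xkr6* (r = 0.72), *Cdk13* (0.68), *Senp6* (0.67), *Peg3* (0.66) and *Slk* (0.66), whose log2 fold changes lay between -0.19 and 0.09. The lists share no gene. Both were chosen for their likeness, so their fold changes carry no test.

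No other gene at the *Ggh* locus was called. Of 20 other genes tested within 5 Mb on either side, 0 were called in the genotype difference by edgeR, where 10.5% of all genes were called. With so few genes nothing is read from the count. An unadjusted p under 0.05 was seen for 2, DESeq2 called 0, and the log2 fold changes ran from -0.14 to 0.14. The nearest tested genes were *Wwp1* (89.1 CPM on average) and *Rmdn1* on the left, with log2 fold changes of 0.00 ± 0.05 and 0.01 ± 0.07, and *Ccnc* and *Tstd3* on the right, with -0.01 ± 0.06 and 0.04 ± 0.07 (SE). Exons of *Ggh* overlap no exon of another gene in the annotation. *Shmt1* shares 184 exonic bases with *Smcr8* and *Fpgs* 61 with *Eng*, each on the opposite strand and under 5% of the exon length.

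The wider folate pathway was described with 31 further genes, of which 25 were tested. In the genotype difference, 4 of 25 were called higher and 2 lower, where 4.83% and 5.72% of all genes were called, and the median log2 fold change was 0.05. The 4 include *Bhmt*, which passed the filter on low counts through *Bmal1*iec-/- mice, the group in which it is high, so that its call is no support. In cytosolic interconversion, *Aldh1l1*, which oxidises formyl folate and releases its carbon, fell by 0.40 ± 0.09 on the log2 scale, from 18.4 ± 3.28 CPM in control mice to 14.3 ± 3.77 (SD, n = 24 and 22). *Qdpr*, a dihydropteridine reductase, rose by 0.15 ± 0.04 (edgeR quasi-likelihood F test, adjusted p = 0.00165 and 0.00760 in this order, SE throughout).

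Of 9 mitochondrial genes tested 1 was called, a share near the 10.5% of all genes and so no result about the group. It was *Amt*, the aminomethyltransferase of the glycine cleavage system, with 0.21 ± 0.07 (SE, adjusted p = 0.0337). Over all 48 mice *Amt* lost the call, as it did without time in the model. It also lost the call without *Bmal1*iec-/- replicates SV400, SV399 or SV444 or control replicate SV434. Of 7 genes of the methionine cycle 2 were called (10.5% of all genes), of which *Bhmt* is 1. *Ahcy*, which clears S-adenosylhomocysteine, rose by 0.17 ± 0.04 (adjusted p = 0.00159), from 159 ± 13.6 CPM to 180 ± 20.3 (SD, n = 24 and 22).

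*Bhmt*, which remethylates homocysteine with betaine, had 0 to 9 counts per mouse, 0.274 ± 0.337 CPM against 1.15 ± 0.789 (SD, n = 24 and 22), and its fitted log2 fold change of 1.99 ± 0.30 (SE) is a description. Among 3 genes of thymidylate and purine synthesis 0 were called in the genotype difference by edgeR or DESeq2, with 1 at an unadjusted p under 0.05. Among 2 carriers and receptors these counts were 0, 0 and 0. In that test 10.5% of all genes were called by edgeR, and with so few genes nothing is read from these counts. No list gene was called for a change of rhythm by edgeR, with 6 of 25 at an unadjusted p under 0.05 and 0 called by DESeq2. Only 0.935% of all genes were called for it by edgeR, so nothing is read from the absence of calls. Every called gene of this list except *Bhmt* moved by less than 1.5-fold.

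**Figure D4:**
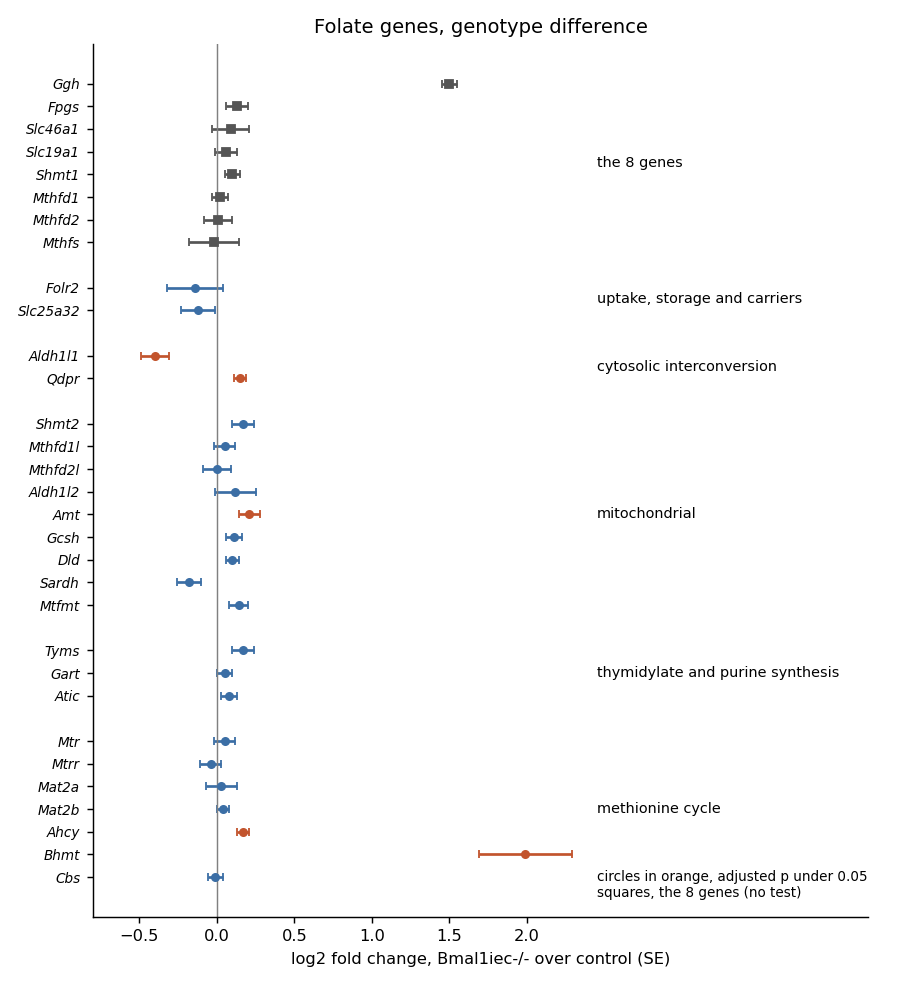
Log2 fold change between genotypes with its SE for the 8 genes (squares, no test) and 23 of the 25 tested genes of the wider folate list (circles), by group. Orange circles passed an adjusted p under 0.05. *Ggh* at 1.5 and *Bhmt* at 1.99, the latter on at most 9 counts per mouse and past the filter through *Bmal1*iec-/- mice, lie apart from the rest, which lie between -0.40 and 0.21.

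Marker lists of cell types were set beside these values, where 4.83% of all genes were called higher and 5.72% lower in *Bmal1*iec-/- mice. Of 7 epithelial markers 2 were called with raised and 1 with reduced levels in *Bmal1*iec-/- mice, and the sum (led by *Krt8* and *Epcam*) ranged from 4817 to 6836 CPM in control mice and from 5358 to 7041 in the 22 *Bmal1*iec-/- mice. Of 5 goblet cell markers 2 were called higher and 1 lower, with sums (led by *Muc2* and *Fcgbp*) of 14170 to 26233 and 14258 to 25552 CPM. Named after their values were seen, *Zg16* had a log2 fold change of 0.70 ± 0.08 and *Clca1* of -0.62 ± 0.10 (SE), so the goblet cell sum hides members that moved in opposite directions. Of 5 smooth muscle markers 2 were called lower (*Myh11* by -0.16 ± 0.05, SE), with sums of 2959 to 4414 and 2623 to 4394 CPM, and of 5 fibroblast markers 1 was called lower, with sums of 936 to 1575 and 827 to 1667 CPM.

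Among markers of macrophages (5 tested), T cells (4) and B and plasma cells (3) none was called by edgeR or DESeq2, with 0, 2 and 1 at an unadjusted p under 0.05. By edgeR 10.5% of all genes were called, so nothing is read from these counts. Of the digestive markers of the pancreas, *Prss2*, *Cpa1*, *Pnlip* and *Amy2b* had at most 2 counts in any tested mouse, while the fifth, *Cela1*, had 127 to 247 counts and a log2 fold change of 0.06 ± 0.05 (SE). The part of cell types in the values of the 8 genes was not tested. SV384 and SV385 had epithelial sums of 7249 and 9652 CPM and the highest *Ggh* of the 48 mice.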

How the data were processed

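The authors trimmed paired reads with Trimmomatic 0.39, aligned them to mm10 with STAR 2.7.5c and used featureCounts 1.4.6 for exonic reads whose mapping quality was 4 or more (the strand setting is not given in the sources used here). The deposited values are raw counts per gene. The 8 genes, the lists and the tests were chosen with earlier results of these data known. Labels do not name pairs, so p-values measure the spread between single mice.

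Counts were tested with edgeR 4.0.16 (TMM, filterByExpr on 12 groups, quasi-likelihood F test, Benjamini-Hochberg over the 15073 genes kept). The models were genotype and time, genotype by 24-h cosine and sine, and genotype by time. Rhythm was tested with an own exact implementation of JTK_cycle (12 phases in steps of 2 h). DESeq2 1.42.0 was an alternative. The genotype test, the change of rhythm test and JTK_cycle were tried on simulated data. The test of genotype by time, the edgeR cosine test and DESeq2 were not. The 46 mice were found from size factors in the study's table, which gave a largest relative gap of 2.26e-07 for these mice and 0.0109 for all 48. Further analysis used R 4.3.3 and Python 3.11.15. Named genes were the 8 genes, list genes called in the genotype difference or change of rhythm, the 5 genes most like *Ggh* by each measure, its 2 nearest tested genes on each side, *Arntl*, *Nr1d1* and up to 2 genes of highest level per marker list. Single values of 2 list genes are not reported here. *Prss2*, *Cpa1*, *Pnlip*, *Amy2b*, *Cela1*, *Zg16* and *Clca1* were named after their values were seen. Genes were placed with GENCODE vM21, which held 55141 of the 55401 identifiers.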

Additional observations from a re-analysis of the deposited data

Results flagged for a closer look

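In 96 groups of 4 mice (8 genes, 2 genotypes, 6 times), 6 held a mouse far from the other 3 by Dixon's criterion, for which chance gives about 1 in 20 groups. In control mice at CT9, *Ggh* was 42.6 CPM in replicate SV420 against 50.7 to 51.7 in the others. In the same group replicate SV401 stood high, with *Fpgs* at 17.7 CPM against 14.0 to 14.5 and *Mthfd2* at 11 CPM against 9.91 to 10.1. At CT5, *Mthfd1* was 52.9 CPM in control replicate SV442 against 41.1 to 43.1. In *Bmal1*iec-/- mice *Fpgs* was 17.3 CPM in SV439 at CT5 against 10.7 to 11.7, and *Slc19a1* was 16.4 CPM in SV448 at CT13 against 17.5 in each of the other 3. For *Slc19a1* and *Mthfd2* the mouse stands apart only because the other 3 lie very close together.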

How the results depend on the processing

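No paired analysis was possible because the labels give every mouse a replicate number of its own. Of the 8 genes, 0 were called for a change of rhythm or a difference by circadian time under any alternative run, with each mouse left out in turn included. In the genotype difference the count stayed at 1, which is *Ggh*, chosen on that contrast, so nothing is read from it. Its log2 fold change was 1.49 to 1.57. The count rhythmic in control mice was 2 to 3, the third gene being *Fpgs*, called by 3 of 5 other settings and without 9 of 24 mice. In control mice the edgeR cosine test called 7352 of all 15073 genes, and p adjusted over the 12 phases alone called 7376. In *Bmal1*iec-/- mice the count of the 8 genes was 1 with p adjusted over the 12 phases alone, where 4310 of all 15073 genes were called. It was 1 by the edgeR cosine test, where 3365 were called, and 0 to 2 with each mouse left out. The wider list had 5 to 7 called genes under other settings with time in the model and 4 to 7 with a mouse left out. It had 1 with a fold change of 1.5 as well (*Bhmt*). With genotype alone, the called genes of the list were *Qdpr*, *Ahcy*, *Aldh1l1* and *Bhmt*. Among its genes *Cbs* was called for a change of rhythm with all 48 mice (adjusted p = 0.0260). A difference by circadian time was called for *Cbs* with all 48 mice (adjusted p = 0.00852), without the filter (0.00264) and by DESeq2 (0.0189), for *Mat2a* without the filter (1.28e-09) and for *Tyms* with all 48 mice (0.0420). With all 48 mice, 4 of the 5 genes most like *Ggh* were shared, and 0 of the 5 by deviations. No gene was called near *Ggh* within 1 Mb (3 tested) or 10 Mb (47 tested), where 10.5% of all genes were called.

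Over all genes, genotype alone called 807 in place of 1590. Change of rhythm called 281 with 48 mice in place of 141, and difference by time 582 with 48 mice, 803 without the filter, 198 by DESeq2 and 8 by period in place of 76, with 129 as the highest count when 1 mouse was left out and 51 as the lowest. JTK_cycle in *Bmal1*iec-/- mice called 1398 without the filter and 4310 over phases alone in place of 2248. The cause was not tested. *Slc46a1* (10 to 38 counts) and *Mthfs* (4 to 21) rest on the fewest counts of the 8 genes.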

Other observations

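Outside the comparison of genotypes, several genes of the wider folate list had a daily course. Of the 25 tested, 8 were called rhythmic in control mice (JTK_cycle, Benjamini-Hochberg adjustment), where 39.7% of all genes were called, and 7 in *Bmal1*iec-/- mice, where 14.9% were called. The examples here were chosen after their values were seen. *Cbs*, which condenses homocysteine with serine, peaked at 14 h in control mice (adjusted p = 1.79e-05) and at 16 h in *Bmal1*iec-/- mice (adjusted p = 0.00635). *Gart*, an enzyme of purine synthesis that uses formyl folate, peaked at 16 h (adjusted p = 0.00125) and 20 h (adjusted p = 0.00230). *Mat2a*, which makes S-adenosylmethionine, had the widest spread of level among these, 282 ± 135 CPM in control mice (SD, n = 24), with peaks at 14 h and 18 h (adjusted p = 0.00184 and 0.0118). The JTK_cycle peaks of these 3 lay 2 to 4 h later in *Bmal1*iec-/- mice, on a grid of 2 h with mice taken 4 h apart. *Amt*, also called in both genotypes, peaked at 22 h in both. The edgeR test of a change of rhythm called none of the 3 (adjusted p = 0.172, 0.350 and 0.568), and under some alternatives *Cbs* and *Mat2a* were called for a difference by circadian time.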
